A study of Mus musculus with 4 samples.

Results

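The clustered protocadherin genes are the members of the Pcdha, Pcdhb and Pcdhg families, which lie one after another on chromosome 18 of the mouse. They were taken by symbol and position from the protein-coding genes of the annotation, which gave 57 genes of 55421 listed, 14 in the alpha cluster, 22 in the beta cluster and 21 in the gamma cluster. Their RNA was measured in cells of the prefrontal cortex (PFC) of newborn mice, dissociated and kept for 10 days in Neurobasal medium with the B27 and GlutaMAX supplements. All mice were wild-type C57BL/6 at postnatal day 0. The treated group received fibroblast growth factor 2 (FGF2), a secreted growth factor that acts on neural progenitors and glia, at 5 ng/mL, and the control group received no FGF2. Each group had 2 libraries of total RNA, numbered 1 and 2, and the libraries of a group are not stated to come from separate cultures. Apart from the youngest and oldest human tissues, the paper gives technical replicates for its bulk RNA samples, without naming the mouse ones. The p-values below may thus cover technical spread only.

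Clustered protocadherins are cell adhesion proteins of the cadherin superfamily. Each neuron switches on its own combination of them, and membranes that carry matching combinations recognise each other, by which the branches of a neuron tell self from non-self. In the alpha and gamma clusters every gene has its own promoter and a large variable first exon, which is spliced to constant exons shared by its whole cluster, while the beta genes each consist of their own exon with no shared part. The choice of promoter is known to depend on DNA methylation and on loops that the insulator protein CTCF and cohesin form between promoters and enhancers. The last genes of the alpha cluster and of the gamma cluster, the C-type isoforms Pcdhac1, Pcdhac2, Pcdhgc3, Pcdhgc4 and Pcdhgc5, are known to be expressed more uniformly from neuron to neuron than the others.

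In mm10 coordinates the alpha cluster spans chr18:36930184-37187661, the beta cluster chr18:37264938-37524479 and the gamma cluster chr18:37661793-37841873, with all genes on the plus strand. A read pair in a constant exon belongs to many genes at once and is not assigned to any of them. A count of an alpha or gamma gene thus stands mainly for its variable exon. For Pcdha11 and Pcdhgc5 (3 separate stretches of their own sequence) and Pcdha4, Pcdhgb1 and Pcdhgb4 (2 each), it may include sequence outside that exon. Sequence that belonged to no other annotated gene of the same strand made up 8.56% to 61.1% of the exonic length of the alpha genes, 33.2% to 68.5% of that of the gamma genes and 90.3% to 100% of that of the beta genes. This stretch is called the countable length here, and genes are ranked by level as counts scaled to a common library total (CPM) per kb of it. Shares of counts, and ratios of one gene or cluster to another, are not scaled to length and are given to compare libraries. The lowest value, 494 bases, belonged to Pcdha4, whose first exon is shared with the annotated readthrough gene Gm42416, and every other alpha gene had at least 2139 bases. Near copies in other genes (95% identity or more over 100 bases or more) were found for 11 alpha genes, for Pcdhga12 and for no beta gene, so reads of those stretches may be missing from the counts. Unspliced RNA that starts at an upstream promoter also covers the variable exons further downstream, and these counts cannot tell it apart from RNA of the downstream gene.

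Counts on genes totalled 9166432 and 9907613 in the FGF2 libraries and 10460236 and 10799886 in the libraries without FGF2, and 3 counts stood for 0.278 to 0.327 CPM. Of 17144 genes tested, 6949 (40.5%) passed an adjusted p-value of 0.05 in the quasi-likelihood test of edgeR (p-values adjusted by Benjamini and Hochberg's method), and 20.7% of the genes tested were higher and 19.9% lower with FGF2.

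All but a pair of the 57 clustered protocadherin genes had enough counts for a test. Pcdhb1 was counted 0 and 3 times with FGF2 and 4 and 3 times without. Pcdha4 was counted 3 and 5 times with FGF2 and 8 and 3 times without, and neither gene was tested. Per countable kb, the mean level of Pcdha4 was 0.95 CPM, beside 0.852 CPM for Pcdha1, which was tested. Among the 55 genes tested, the test called 15 (27.3%, beside 40.5% of all genes), of which 8 were higher and 7 lower with FGF2. Before adjustment, 22 had a p-value under 0.05. Without FGF2 replicate 1, FGF2 replicate 2, noFGF2 replicate 1 or noFGF2 replicate 2, the higher calls numbered 5, 5, 3 and 4 and the lower calls 9, 5, 4 and 3, while the share called of all genes was 34.5%, 33%, 29% and 29.5%. The called changes were small: their absolute log2 fold changes ran from 0.21 to 0.79, and 0 of them exceeded 1, which 1303 called genes (7.6% of all tested) did. The median absolute log2 fold change was 0.20 over the members and 0.28 over all genes tested. The alpha genes called were lower with FGF2, the beta genes called were higher, and the gamma cluster held called genes of both directions. The difference between clusters was not tested.

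**Figure D1:**
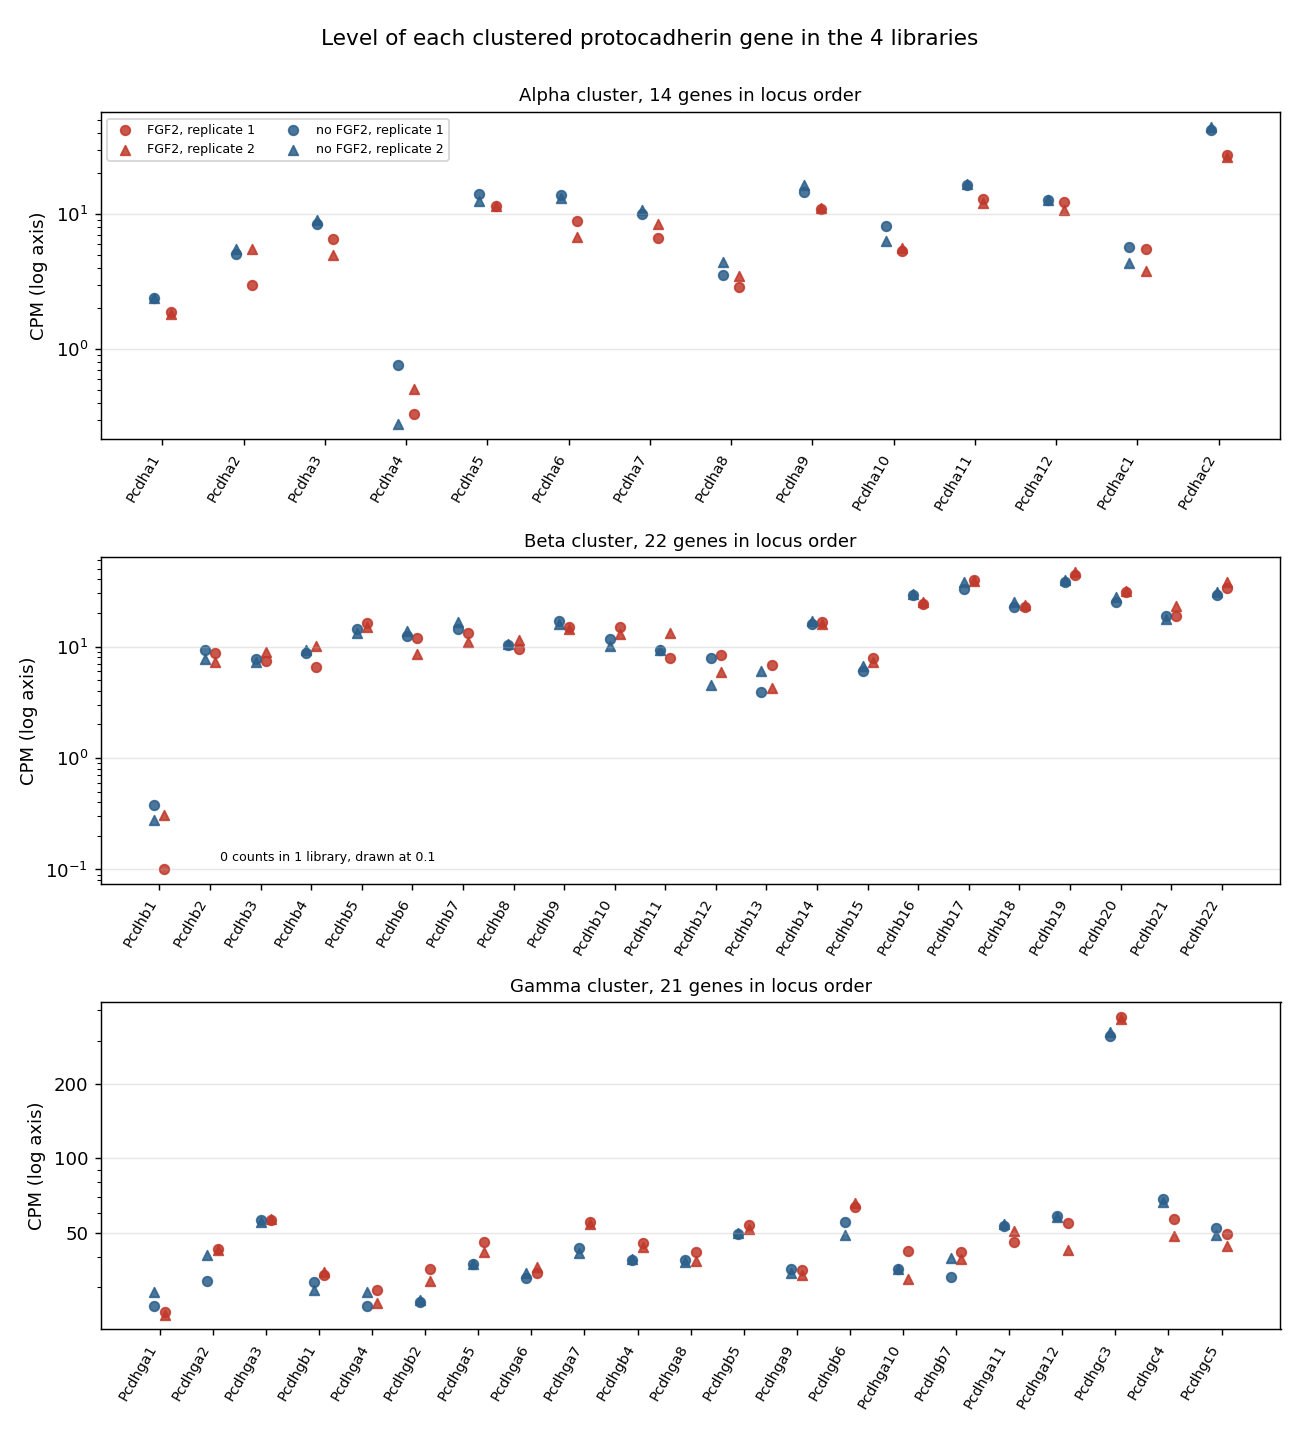
Level of each clustered protocadherin gene in CPM (log axis) in the 2 libraries with FGF2 (red) and the 2 without FGF2 (blue), with genes in locus order and replicates as circles and triangles. Red points lie below blue ones for 11 of the 13 alpha genes tested, and Pcdhgc3 stands far above the rest of the gamma cluster.

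The gamma cluster stood above the other two in level, with or without FGF2. Without FGF2 the summed level per countable kb was 4.52 and 4.54 CPM for the alpha cluster, 3.75 and 3.88 CPM for the beta cluster and 17.8 and 18.1 CPM for the gamma cluster. With FGF2 it was 3.32 and 3.23 CPM for the alpha cluster, 3.98 and 4.07 CPM for the beta cluster and 19.6 and 18.8 CPM for the gamma cluster. Gamma genes took 69.5% and 69.3% of all counts on the clustered protocadherins without FGF2 and 72.4% and 71.3% with FGF2. The highest level was that of Pcdhgc3, at 93.3 and 96.8 CPM per kb without FGF2 and 111 and 109 CPM per kb with FGF2. The next gene, Pcdhgb6, had a mean of 22.8 CPM per kb over the 4 libraries, Pcdhga3 had 21.6, and the remaining gamma genes lay between 7.78 and 19.4. In the alpha cluster Pcdhac2 led with 11.5 CPM per kb, followed by Pcdha9 with 5.34 and Pcdha5 with 5.27. In the beta cluster Pcdhb20 (8.06 CPM per kb) and Pcdhb17 (8.00 CPM per kb) led, and their order changed between libraries. Pcdhb20 had 8.67 and 8.80 CPM per kb with FGF2 and 7.01 and 7.76 without, while Pcdhb17 had 8.42 and 8.31 with FGF2 and 7.07 and 8.19 without. Over the 55 genes tested, the level per kb and the position in the locus had a Spearman correlation of 0.775. Within the clusters it was lower, at 0.368 (alpha), 0.548 (beta) and 0.125 (gamma). These values are descriptions over genes that share libraries.

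The alpha cluster was lower with FGF2 as a whole. Its genes summed to 115.8 and 112.6 CPM with FGF2 and to 157.6 and 158.3 CPM without, which is 114.2 ± 2.31 against 158.0 ± 0.497 CPM (SD, n = 2 libraries) and a log2 ratio of -0.47. Both FGF2 libraries lay below both libraries without FGF2, though with 2 libraries against 2 no exact permutation test can pass 0.05. Of the 13 alpha genes tested, 5 were called lower (38.5%, beside 19.9% of all genes) and 0 higher. All 13 had a negative log2 fold change, with a median of -0.40 and a range from -0.79 to -0.12, beside a median of 0.00 over all genes tested and 50.1% of all genes with a negative value. That count of negative values held under each of the 3 other scalings and under DESeq2 and limma-voom, and it was 12 or 13 when 1 library was left out. Both FGF2 libraries lay below both others for 11 of the 13, beside 33.4% of all genes, and overlapped for Pcdha2 and Pcdhac1. In bulk RNA, fewer cells that express a gene and less of its RNA per cell cannot be told apart.

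Among the alternately expressed alpha genes, Pcdha6 showed the largest change. It had 8.93 and 6.71 CPM with FGF2 and 13.9 and 13.1 CPM without, and the groups stood well apart. The log2 fold change was -0.79 ± 0.189 (SE), with an adjusted p-value of 1.1e-04 in edgeR's quasi-likelihood test. Pcdha6 was also called without each library in turn, at -1.01 to -0.60, and with DESeq2 (adjusted p = 0.0331). Pcdha9 had 10.9 and 11.1 CPM with FGF2 and 14.6 and 16.4 CPM without. Its fold change was -0.50 ± 0.167 on the log2 scale (edgeR adjusted p = 0.00896), and it missed the threshold without noFGF2 replicate 2, at -0.41 (edgeR adjusted p = 0.148). The groups of Pcdha9 did not overlap, and the libraries without FGF2 lay further apart than those with FGF2.

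Pcdha3 and Pcdha11 passed with less margin. Pcdha3 had 6.50 and 4.98 CPM with FGF2 and 8.47 and 9.05 CPM without, or -0.61 ± 0.227 on the log2 scale (edgeR adjusted p = 0.0184). Pcdha11 had 12.9 and 12.1 CPM with FGF2 and 16.5 and 16.8 CPM without, or -0.41 ± 0.158 on the log2 scale (edgeR adjusted p = 0.0243). For both genes the groups did not overlap. Both missed the threshold without FGF2 replicate 2 (Pcdha3 -0.43, edgeR adjusted p = 0.207, and Pcdha11 -0.37, edgeR adjusted p = 0.117), without noFGF2 replicate 1 (edgeR adjusted p = 0.0641 and 0.0896) and without noFGF2 replicate 2 (edgeR adjusted p = 0.135 and 0.124). DESeq2 called neither of them, nor Pcdha9, with adjusted p-values of 0.228, 0.241 and 0.166.

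Pcdha5, among the 3 highest of the cluster per kb, had 11.5 and 11.5 CPM with FGF2 and 14.1 and 12.4 CPM without. Its log2 fold change of -0.20 (95% interval -0.54 to 0.13) did not pass the test (edgeR adjusted p = 0.364). The other alpha genes that were not called, apart from the C-type Pcdhac1, ran from -0.45 for Pcdha7 to -0.14 for Pcdha12. Pcdha10 is the name used here, from RefSeq, for the gene starting at position 37005203, one of a pair to which the annotation gives the symbol Pcdha11. Its value was -0.40 on the log2 scale (edgeR adjusted p = 0.184).

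Of the 5 C-type isoforms, 1 was called higher and 2 lower with FGF2, beside 20.7% and 19.9% of all genes. Pcdhac2, which is known to act in the spacing of serotonergic axons, was the clearest member. It had 27.3 and 26.3 CPM with FGF2 and 41.9 and 44.0 CPM without, which is 26.8 ± 0.705 against 42.9 ± 1.48 CPM (SD, n = 2 libraries). Both FGF2 libraries lay far below both others, and the log2 fold change was -0.68 ± 0.107, or 0.625-fold (edgeR adjusted p = 1.89e-09). Without each library in turn the value stayed between -0.72 and -0.65. Pcdhac2 stood at 0.309 and 0.305 of the summed level of the other alpha genes with FGF2 and at 0.362 and 0.384 without. Pcdhac1 had few counts, with 50 and 37 with FGF2 and 60 and 47 without. Its libraries overlapped, the log2 fold change was -0.12 (95% interval -0.67 to 0.43, edgeR adjusted p = 0.773), and it turned to 0.13 without FGF2 replicate 2 and to 0.08 without noFGF2 replicate 1.

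The C-type genes of the gamma cluster held calls of both directions. Pcdhgc3, which is known to promote dendrite branching, had 373.8 and 367.7 CPM with FGF2 and 315.2 and 327.1 CPM without. Both FGF2 libraries lay above both others (33.6% of all genes showed this), and the log2 fold change was 0.21 ± 0.0412, or 1.15-fold (edgeR adjusted p = 3.25e-06). Pcdhgc4, which is known to be needed for the survival of cortical interneurons, had 56.8 and 48.6 CPM with FGF2 and 68.7 and 66.6 CPM without. Its log2 fold change was -0.36 ± 0.0827, or 0.777-fold (edgeR adjusted p = 5.65e-05), again with no overlap. The ratio of Pcdhgc3 to Pcdhgc4 was 6.59 and 7.56 with FGF2 and 4.59 and 4.91 without. Both calls held without each library in turn, with values of 0.18 to 0.23 for Pcdhgc3 and -0.48 to -0.26 for Pcdhgc4. Pcdhgc5, whose protein is known to bind a GABA-A receptor subunit, had 49.5 and 44.3 CPM with FGF2 and 52.4 and 49.1 CPM without. The groups of Pcdhgc5 overlapped and its log2 fold change was -0.11 (95% interval -0.29 to 0.06, edgeR adjusted p = 0.334).

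**Figure D2:**
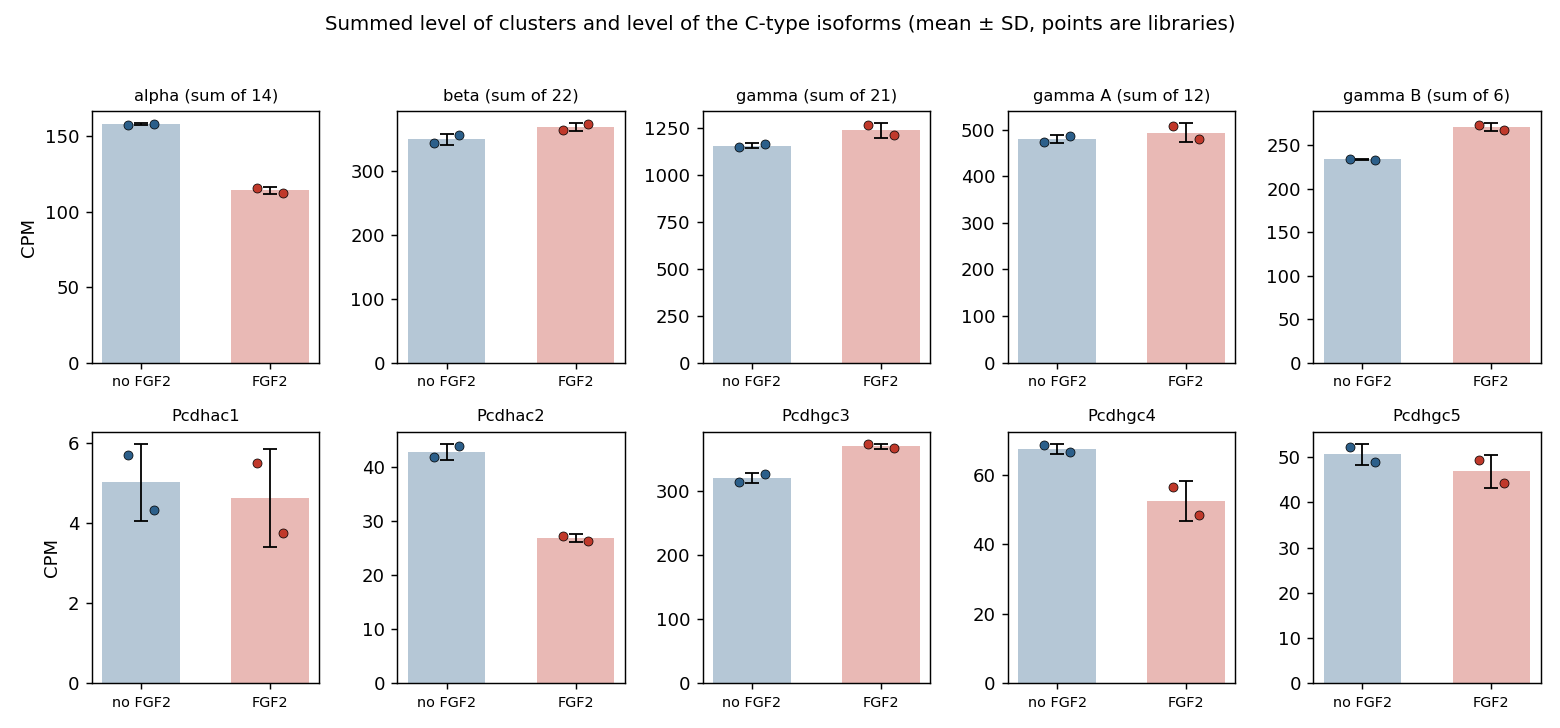
Summed level in CPM of the clusters and of the gamma A and gamma B genes (top) and level of the 5 C-type isoforms (bottom), as mean ± SD (bars and error bars) with the 2 libraries of each group as points. The alpha cluster and Pcdhac2 are lower with FGF2, the gamma B genes and Pcdhgc3 are higher, and the FGF2 libraries of gamma A, Pcdhac1 and Pcdhgc5 overlap the others.

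The beta cluster changed little. Its genes summed to 365.0 and 373.2 CPM with FGF2 and to 343.9 and 356.0 CPM without, a log2 ratio of 0.08. Of the 21 beta genes tested, 2 were called higher (9.52%, beside 20.7% of all genes) and 0 lower. The median log2 fold change was 0.13, and it was 0.04 without FGF2 replicate 2, 0.06 without noFGF2 replicate 1 and 0.08 without noFGF2 replicate 2. Without FGF2 replicate 1, 2 beta genes were called lower. Pcdhb19 had 44.3 and 46.5 CPM with FGF2 and 37.9 and 39.3 CPM without, or 0.23 ± 0.0966 on the log2 scale (edgeR adjusted p = 0.04). Pcdhb22 had 33.7 and 38.2 CPM with FGF2 and 28.7 and 30.8 CPM without, or 0.28 ± 0.109 on the log2 scale (edgeR adjusted p = 0.0302). The FGF2 libraries lay above the others for both genes, but the margins were narrow. Pcdhb19 missed the threshold without any one of the 4 libraries, with log2 fold changes of 0.20 to 0.26 (edgeR adjusted p = 0.0507 to 0.223). Pcdhb22 missed it without FGF2 replicate 2 (0.18, edgeR adjusted p = 0.31), without noFGF2 replicate 1 (0.22, edgeR adjusted p = 0.227) and without noFGF2 replicate 2 (0.32, edgeR adjusted p = 0.0671). DESeq2 called neither, with adjusted p-values of 0.285 and 0.27.

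The top beta genes per kb were not called. Pcdhb20 had 30.9 and 31.3 CPM with FGF2 and 24.9 and 27.6 CPM without, so its groups did not overlap, and its log2 value was 0.24 (95% interval 0.02 to 0.47, edgeR adjusted p = 0.0806). Pcdhb17 had 39.2 and 38.7 CPM with FGF2 and 32.9 and 38.2 CPM without, and a log2 fold change of 0.13 (95% interval -0.07 to 0.33, edgeR adjusted p = 0.319). The sign of the beta genes varied with their place in the cluster. Of the 8 genes from Pcdhb2 to Pcdhb9, 3 had a positive and 5 a negative log2 fold change, with a median of -0.09. Of the 13 genes from Pcdhb10 to Pcdhb22, 10 had a positive and 3 a negative one, with a median of 0.20. The division between these stretches was set after the values were known, and most of the genes in them were not called, so the counts are a description.

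The gamma cluster summed to 1261 and 1208 CPM with FGF2 and to 1144 and 1163 CPM without, a log2 ratio of 0.10. Of its 21 genes, all tested, 6 were called higher (28.6%, beside 20.7% of all genes) and 2 lower (9.52%, beside 19.9%). The median log2 fold change was 0.07, with 15 positive and 6 negative values, or 14 and 7 under upper quartile and total count scaling and 12 and 9 without FGF2 replicate 1. Without FGF2 replicate 2 the median was 0.12. Apart from the C-type genes, the cluster holds 12 gamma A and 6 gamma B genes, subfamilies told apart by their protein sequence. The gamma B genes summed to 273.9 and 267.6 CPM with FGF2 and to 234.3 and 233.3 CPM without, a log2 ratio of 0.21. All 6 had a positive value, also in each alternative fit, beside 50.1% of all genes with a negative value. Called higher were 2 of them (33.3%, beside 20.7% of all genes). The pseudogene Pcdhgb8, also of gamma B type but not among the 6, went the other way, at -0.21 (edgeR adjusted p = 0.236). The gamma A genes summed to 507.3 and 479.4 CPM with FGF2 and to 473.8 and 486.5 CPM without, so those libraries overlapped. Of the gamma A genes, 8 had a positive value, and 5 without FGF2 replicate 1, where their median turned from 0.05 to -0.03.

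Pcdhga7 and Pcdhgb6 rose most firmly among these. Pcdhga7 had 55.1 and 54.2 CPM with FGF2 and 43.3 and 41.5 CPM without, or 0.37 ± 0.0905 on the log2 scale (edgeR adjusted p = 2.38e-04). The libraries of each group lay close together, and the call held without each library in turn (0.33 to 0.39). Pcdhgb6, second in the cluster per kb, had 63.6 and 66.3 CPM with FGF2 and 55.1 and 48.9 CPM without. Its log2 fold change was 0.32 ± 0.0834 (edgeR adjusted p = 4.84e-04), and without noFGF2 replicate 2 it was 0.23 and missed the threshold (edgeR adjusted p = 0.0865). DESeq2 called both genes, with adjusted p-values of 0.0316 and 0.0497.

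The other called gamma A and gamma B genes lost their calls when certain single libraries were left out. Pcdhgb2 had 35.5 and 31.8 CPM with FGF2 and 26.1 and 26.7 CPM without, or 0.35 ± 0.113 on the log2 scale (edgeR adjusted p = 0.00679). It missed the threshold without FGF2 replicate 1 (0.27, edgeR adjusted p = 0.105) and without noFGF2 replicate 1 (0.33, edgeR adjusted p = 0.0698). Pcdhga5 had 45.7 and 41.8 CPM with FGF2 and 37.2 and 37.2 CPM without, or 0.23 ± 0.0983 on the log2 scale (edgeR adjusted p = 0.0455). For both genes the FGF2 libraries were the higher ones without overlap. Pcdhga5 missed the threshold without FGF2 replicate 1 (0.16, edgeR adjusted p = 0.284), noFGF2 replicate 1 (0.23, edgeR adjusted p = 0.169) or noFGF2 replicate 2 (0.23, edgeR adjusted p = 0.17).

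Pcdhga2 had 42.9 and 42.6 CPM with FGF2 and 31.8 and 40.5 CPM without, or 0.24 ± 0.0995 on the log2 scale (edgeR adjusted p = 0.0396). The groups were parted mainly by the low noFGF2 replicate 1. Without noFGF2 replicate 1 the value dropped to 0.07 (edgeR adjusted p = 0.713), and the call was also lost without FGF2 replicate 1 (0.23, edgeR adjusted p = 0.105) and without FGF2 replicate 2 (0.24, edgeR adjusted p = 0.097). Without noFGF2 replicate 2 it stood at 0.42. Pcdhga12 had 55.0 and 42.7 CPM with FGF2 and 58.3 and 57.8 CPM without, or -0.25 ± 0.0867 on the log2 scale (edgeR adjusted p = 0.0107). Here FGF2 replicate 2 was the low library. Without FGF2 replicate 2 the value was -0.08 (edgeR adjusted p = 0.579), without FGF2 replicate 1 it was -0.45, and the call was lost without noFGF2 replicate 1 (-0.25, edgeR adjusted p = 0.0743) and without noFGF2 replicate 2 (-0.26, edgeR adjusted p = 0.0581). DESeq2 called none of Pcdhgb2, Pcdhga5, Pcdhga2 and Pcdhga12, with adjusted p-values of 0.144, 0.304, 0.33 and 0.221.

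Not every well expressed gamma gene moved. Pcdhga3, which came next to Pcdhgb6 per kb, had 56.2 and 56.8 CPM with FGF2 and 56.5 and 55.5 CPM without. Its libraries overlapped, and the log2 fold change was 0.01 (95% interval -0.15 to 0.18, edgeR adjusted p = 0.925).

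**Figure D3:**
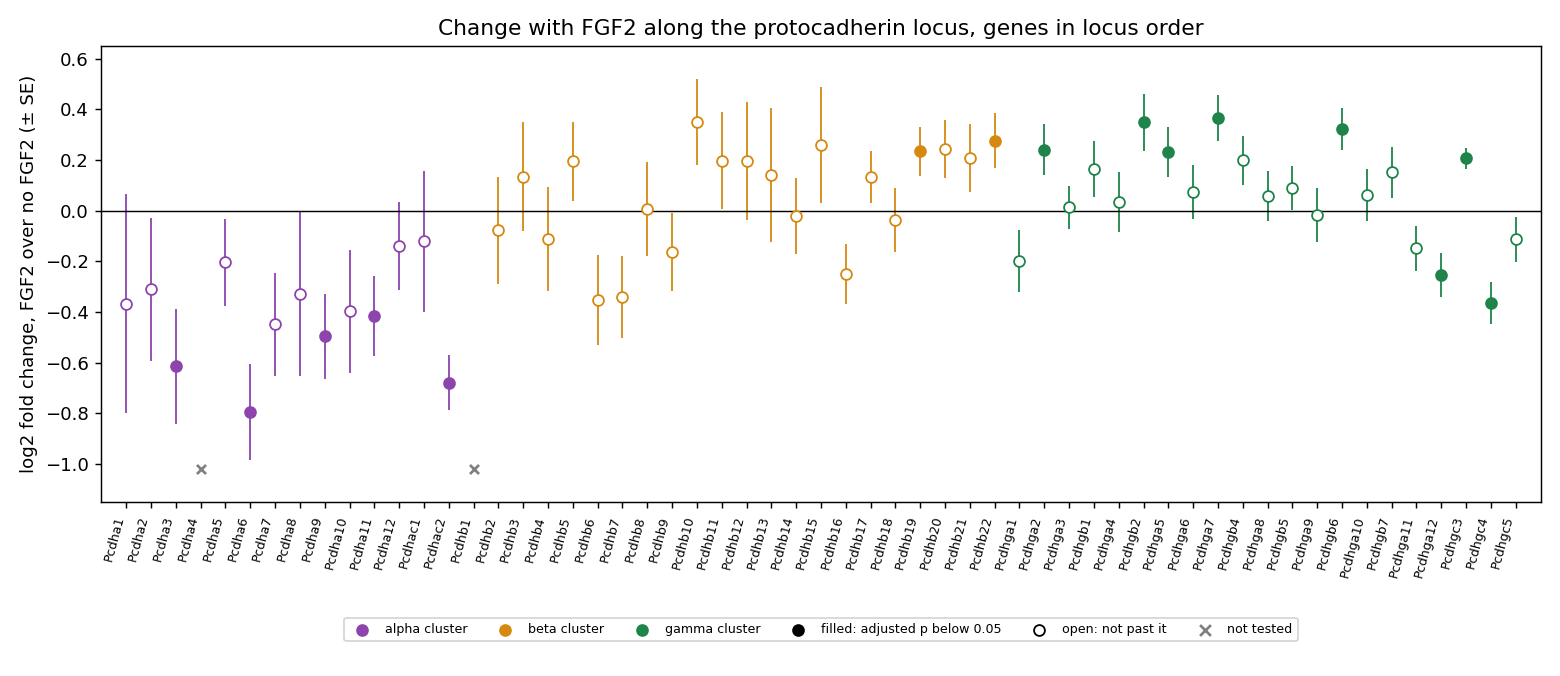
Log2 fold change (FGF2 over no FGF2, ± SE) of the 55 clustered protocadherin genes tested, in locus order and coloured by cluster; filled points passed an adjusted p-value of 0.05 and crosses near the lower edge stand for the 2 genes not tested, with no value. All 13 alpha values lie below 0, with 5 filled, while beta and gamma values lie on both sides.

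Read along the locus, the log2 fold changes ran from the negative values of the alpha cluster to mostly positive ones from Pcdhb10 onward. The exceptions from there on were Pcdhb14, Pcdhb16, Pcdhb18, Pcdhga1, Pcdhga9, Pcdhga11, Pcdhga12, Pcdhgc4 and Pcdhgc5, with Pcdhgc3, called higher, lying between Pcdhga12 and Pcdhgc4. The Spearman correlation of log2 fold change with position was 0.515 over the 55 genes, 0.06 within the alpha cluster (n = 13), 0.501 within the beta cluster (n = 21) and -0.313 within the gamma cluster (n = 21). These are descriptions over neighbouring genes, which share libraries. The balance between clusters, in summed CPM not scaled to length, differed between the groups. The alpha total was 0.0918 and 0.0932 of the gamma total with FGF2 and 0.138 and 0.136 without. The beta total was 0.289 and 0.309 of the gamma total with FGF2 and 0.30 and 0.306 without. The alpha share was thus lower in both FGF2 libraries, whereas the beta share overlapped.

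Of the 15 called genes, 5 passed in every alternative fit run, among them the 3 C-type genes Pcdhac2, Pcdhgc3 and Pcdhgc4, together with Pcdha6 and Pcdhga7. DESeq2 called 6 of the 55 members tested (10.9%, beside 23.2% of the 17279 genes it tested), these and Pcdhgb6.

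Neuronal and glial markers moved between the same libraries, and the counts below stand beside 20.7% of all genes higher and 19.9% lower. Of 8 pan-neuronal markers, such as Map2, Tubb3 and Dcx, 7 were lower and 1, Nefl, was higher with FGF2, and they summed to 3342 and 3487 CPM with FGF2 and 4938 and 4916 CPM without. Of 7 inhibitory neuron markers, such as Gad1 and Sst, all 7 were lower, with summed levels of 641.6 and 654.4 CPM against 1084 and 1117 CPM. Excitatory neuron markers were lower for 4 of 7 and called higher for 0, at 506.2 and 479.2 CPM against 617.5 and 645.9 CPM. The median log2 fold change was -0.48 for the pan-neuronal, -0.72 for the inhibitory and -0.34 for the excitatory list, beside -0.40 for the alpha genes. Astrocyte markers were higher for 7 of 8, with S100b the exception, and oligodendrocyte lineage markers were higher for all 7 tested, Mog being too low to test. The astrocyte markers summed to 12460 and 12340 CPM with FGF2 and 7546 and 7498 CPM without, and the oligodendrocyte markers to 1512 and 1534 CPM with FGF2 and 478.5 and 493.8 CPM without. The part of these shifts in the protocadherin results was not tested.

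Microglia markers summed to 11.7 and 13.9 CPM with FGF2 and 5.52 and 5.91 CPM without (2 of 3 tested higher). Meningeal and mural markers summed to 59.6 and 56.9 CPM with FGF2 and 46.1 and 45.7 CPM without (2 of 5 tested higher, 2 lower). Most of the latter sums came from Pdgfrb, with 49.15 and 46.57 CPM with FGF2 and 28.65 and 28.91 CPM without. Pdgfrb and Rgs5 were called higher, and Col1a1 and Col1a2 lower. Endothelial markers reached at most 8.38 CPM and choroid plexus markers at most 5.71 CPM in any library. Neural progenitor markers summed to 1828 and 1830 CPM with FGF2 and 901.4 and 930.9 CPM without. Most of these sums came from Vim, with 1580 and 1570 CPM with FGF2 and 664 and 683.2 CPM without. The progenitor markers were called higher for 3 of 6 and lower for 1, Nes. Of 4 proliferation markers 3 were lower.

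**Figure D4:**
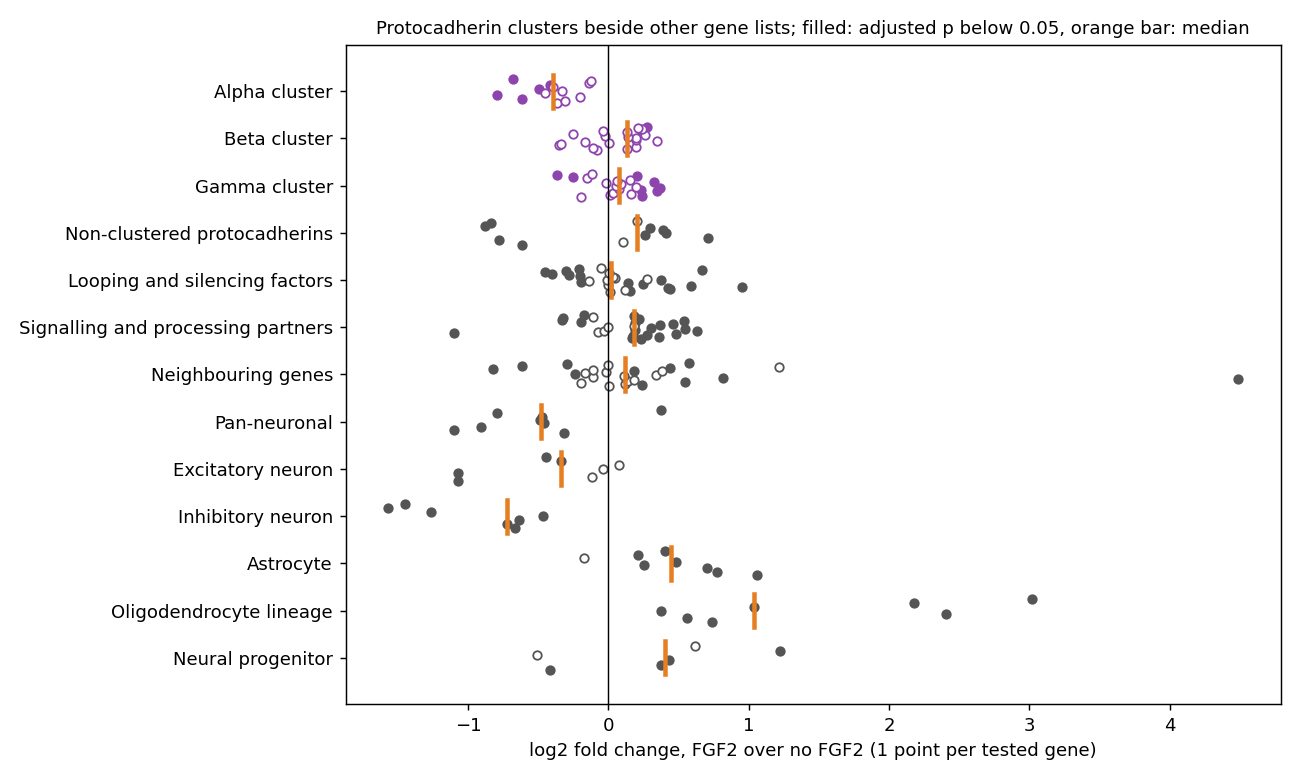
Log2 fold change (FGF2 over no FGF2) of each tested gene of the 3 protocadherin clusters (purple) and of other gene lists (grey), with filled points past an adjusted p-value of 0.05 and orange bars at the medians. The protocadherin values lie between -0.79 and 0.37, the alpha median (-0.40) lies between those of the excitatory (-0.34) and pan-neuronal (-0.48) markers, and those of the beta (0.13) and gamma (0.07) clusters lie nearer to 0.

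Genes of chromatin regulation, some of which are known to act on protocadherin promoters, held calls of both directions. Of 26 factors of chromatin looping and silencing, 9 were higher and 7 lower with FGF2, beside 20.7% and 19.9% of all genes, with a median log2 fold change of 0.02. Ctcf itself, the insulator protein, was counted 914 and 970 times with FGF2 and 993 and 1121 times without, or 0.01 ± 0.0664 on the log2 scale (edgeR adjusted p = 0.937), and its sign changed under upper quartile and total count scaling. Smchd1, which is known to help silence protocadherin clusters, was at -0.01 (edgeR adjusted p = 0.929). Called genes of the list with the largest changes were Stag2, a cohesin subunit (0.95 ± 0.076), Rest, a repressor of neuronal genes (0.67 ± 0.0971), Nipbl, the cohesin loader (0.59 ± 0.0567), and Tet1, which oxidises methylated cytosine (-0.45 ± 0.0557), with edgeR adjusted p-values of 2.29e-34, 5.24e-11, 4.93e-24 and 8.37e-15.

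Of 26 genes for proteins that process protocadherins or carry their signals, 16 were higher and 5 lower, beside 20.7% and 19.9% of all genes, with a median log2 fold change of 0.18. Adam10, the protease that sheds protocadherin ectodomains, was at 0.23 (edgeR adjusted p = 6.05e-04), and missed the threshold without FGF2 replicate 2 (0.14, edgeR adjusted p = 0.127). Fyn, a tyrosine kinase (0.63), Pdcd10, a binding partner of the constant domains (0.54), and Wasf2, of the WAVE actin complex (0.54), rose, with edgeR adjusted p-values of 2.71e-47, 4.06e-05 and 2.36e-10. Ret, a receptor kinase that interacts with protocadherins, was counted 25 and 22 times with FGF2 and 57 and 57 times without (-1.10, edgeR adjusted p = 0.00194), and DESeq2 did not call it (adjusted p = 0.0805).

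The non-clustered protocadherins have their own loci and no shared exons. Of 11 tested, 5 were higher and 4 lower, beside 20.7% and 19.9% of all genes, with log2 fold changes from -0.88 to 0.71. Pcdh9 rose by 0.71 on the log2 scale (edgeR adjusted p = 2.43e-34), and Pcdh18, Pcdh19 and Pcdh8 fell by 0.88, 0.84 and 0.78 (edgeR adjusted p = 1.06e-07, 5.21e-29 and 5.95e-18). The difference between clustered and non-clustered genes was not tested.

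In and around the clusters, 25 of the 33 other protein-coding genes within 500 kb were tested. The 33 include the readthrough genes Gm37013, Gm37388 and Gm42416, which run across the clusters and had 0 counts. Of the 25 tested, 7 were higher and 4 lower, beside 20.7% and 19.9% of all genes, with a median log2 fold change of 0.12. Cd14, an endotoxin coreceptor of innate immunity, was counted 82 and 82 times with FGF2 and 4 and 4 times without (edgeR adjusted p = 4.84e-26). Tmco6 was higher (0.82, edgeR adjusted p = 2.65e-05), and Rell2 and the non-clustered Pcdh1 were lower (-0.82 and -0.62, edgeR adjusted p = 1.11e-09 and 1.01e-27).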

How the data were processed

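The authors mapped total RNA reads to mm10 with HISAT2 2.1.0, filtered them by mapping quality with Samtools and counted them per gene with HTSeq 0.11.2, tool versions as in the submitters' processing notes, and deposited the raw, unnormalized counts of every library. The release of the annotation and the strand setting are not given in the sources used here. From the values, 8 of 821 genes covered by another gene on their own strand had counts, beside 163 of 481 covered on the opposite strand. Tallies that name no gene were left out. Of the read pairs on genes, in no feature or ambiguous, 43.2% to 45.9% were in no feature and 1.47% to 1.76% ambiguous. Genes were named by GENCODE M21, which matched 55240 of 55421 identifiers.

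Counts were tested with edgeR 4.0.16 in R 4.3.3 (TMM factors 0.992 to 1.01, expression filter, robust quasi-likelihood, Benjamini-Hochberg adjustment over 17144 genes), after a check on simulated counts. CPM use TMM-scaled totals. Alternatives used DESeq2 1.42.0, limma 3.58.1 (voom), other scalings, filters, offsets and left-out libraries. Replicates differed by more than sampling noise (chi-square per degree of freedom 2.28 and 1.76). Members, gene lists and the naming rule (C-type genes, the 3 highest per kb of each cluster, all called members, and up to 4 of each list with 5 fixed genes, 1 of which is not reported here) were chosen with earlier results of these data known. Other neighbours and markers named were chosen after their values were seen. Intervals are approximate, at 95%.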

Additional observations from a re-analysis of the deposited data

How the results depend on the processing

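Called genes numbered 6949 of all tested and 4007 with DESeq2. Members called higher (8) and lower (7) became 3 and 3 with DESeq2, 4 and 4 at a threshold of 0.01, 3 to 5 and 3 to 9 with 1 library left out (the lone library of a group is then assumed to vary like the others), and the higher ones 4 under upper quartile scaling, 5 under total count scaling and 5 with no filter. Alpha genes called lower (5) became 2 with DESeq2, 3 at 0.01 and 2 to 5 with 1 library left out. Beta genes called higher (2) became 0 with DESeq2, at 0.01 and under upper quartile scaling, 1 under total count scaling, with no filter and with GC and length offsets (also with the block), and 0 to 2 with 1 library left out, and those called lower (0) became 1 under upper quartile scaling and both offsets and 0 to 2 with 1 library left out. Gamma genes called higher (6) became 3 with DESeq2 and 3 to 5 with 1 library left out, and those called lower (2) became 1 with DESeq2, at 0.01 and under both offsets, and 1 to 2 with 1 library left out. Called partners went from 21 to 12 and neighbours from 11 to 7 with DESeq2. The alpha log2 ratio was -0.49 under upper quartile scaling. Levels per kb without FGF2 were 2.03 (alpha) and 10.3 (gamma) over whole exonic lengths, and 4.97, 3.95 (beta) and 19.1 over windows with no exact copy.

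Among the members and other genes named by rule, signs reversed for Pcdhac1 (0.13 without FGF2 replicate 2, 0.08 without noFGF2 replicate 1, -0.42 to 0.13 over the 4 libraries), Pcdhga3 (-0.013 under upper quartile scaling, -0.0045 under total count scaling, -0.0043 to 0.022 with 1 library left out), Ctcf (-0.017 and -0.0088 under the same scalings, -0.059 to 0.072 with 1 library left out) and Smchd1 (-0.13 to 0.10 with 1 library left out). Other members changed sign too, and positive values over the 55 members numbered 28 and, over the alternatives, 25 to 29. The cause was not tested. Libraries of the same replicate number showed no shared deviations (correlation of deviations 1.3e-05), which cannot show whether they were paired in the experiment. With the replicate number as a block, 6814 genes were called, and of the named members Pcdhga5 lost its call (edgeR adjusted p = 0.051). Pcdha4 and Pcdhb1 had too few counts for a test.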

Other observations

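Pcdhgb8, of gamma B type, is annotated as a polymorphic pseudogene of the gamma cluster and therefore not counted among its 21 genes. It was counted 146 and 170 times with FGF2 and 214 and 199 times without (log2 fold change -0.21, edgeR adjusted p = 0.236). The readthrough genes Gm37013, Gm37388, Gm38182 and Gm42416, which are annotated across the clusters and share exons with their genes, had 0 counts in every library. Annotated antisense genes overlapped 13 members, and the 9 of them had at most 38 counts in any library. The highest were Gm26672, opposite Pcdhga10, Pcdhgb7, Pcdhga11 and Pcdhga12, counted 19 and 38 times with FGF2 and 35 and 28 times without, and BC037039, opposite Pcdhgc3, counted 20 and 29 times with FGF2 and 32 and 27 times without. Neither passed edgeR's test (adjusted p = 0.97 and 0.873).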
